A study of Mus musculus with 6 samples.

Results

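The D-type cyclins, their kinases Cdk4 and Cdk6, the inhibitor Cdkn1b and the 3 retinoblastoma genes were compared between whole hearts from 3 DNMTs-Tg and from 3 wild-type animals at 8 weeks of age. The 9 genes are Ccnd1, Ccnd2, Ccnd3, Cdk4, Cdk6, Cdkn1b, Rb1, Rbl1 and Rbl2, out of 18193 genes with a probe set of their own, and 29 of the 45037 probe sets tested carry 1 of these symbols and no other. A probe set is a group of short oligonucleotides on the array that together report 1 transcript or a part of it. The genes were put together by function, but the family was chosen on an earlier result from the same 6 arrays, the lower Ccnd2 signal in DNMTs-Tg hearts. The genotype difference of Ccnd2 is therefore given below as a description, without a p-value.

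DNMTs-Tg mice carry transgenes for DNMT3A2, the shorter isoform of DNMT3A, which methylates unmethylated DNA, and for DNMT3L, a partner with no catalytic activity of its own, both expressed ectopically in many somatic cell types. They were bred from females carrying a Ddx4-cre transgene on the FVB background, in which a germ cell promoter drives the recombinase, and males carrying the floxed construct. The labels call the controls wild type and do not say whether they carried Cre or the construct before recombination. The study looked for genes silenced by added methylation, and DNA methylation itself was not analysed here. Each array held the RNA of 1 mouse, replicates 1, 5 and 6 for DNMTs-Tg and replicates 1, 4 and 6 for wild-type.

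D-type cyclins carry growth signals into the cell cycle. They bind and activate CDK4 or CDK6, the active kinase phosphorylates RB1 and its relatives RBL1 (p107) and RBL2 (p130), and E2F factors are then released to drive genes of DNA replication. CDKN1B (p27) binds cyclin-CDK complexes and holds CDK2 in check. In the mouse heart cardiomyocytes divide until shortly after birth and then leave the cell cycle, and cyclin D2 is known from transgenic mice as a cyclin that can keep cardiomyocytes synthesising DNA.

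All values are log2 signals as deposited, so a difference of 1 is a 2-fold change, and differences are DNMTs-Tg minus wild-type. The arrays had medians of 5.28 to 5.33, and their 40th percentiles lay between 4.64 and 4.72; a signal at or below its own array's 40th percentile is called dim here. The transgene product Dnmt3l stood at 12.19 to 12.38 on the DNMTs-Tg arrays and at 5.17 to 5.48 on the wild-type arrays. Of the 5 Dnmt3a probe sets 0 passed by limma and 1 had an unadjusted p under 0.05 (difference 1.02, adjusted p = 0.0563), while the other 4 differed by -0.28 to -0.09. All 10 cardiomyocyte markers were above the dim range on each array, and their mean relative to the wild-type mean was -0.23, -0.03 and 0.01 in DNMTs-Tg replicates 1, 5 and 6. DNMTs-Tg replicate 1 stood apart for macrophage markers (1.34, against -0.11 and -0.03 in replicates 5 and 6) and for fibroblast markers (1.16, against 0.26 and 0.19), while wild-type arrays lay between -0.12 and 0.17 and between -0.17 and 0.24. Of 3 measured neutrophil markers 2, S100a8 and S100a9, were higher in DNMTs-Tg hearts. Of 8 endothelial markers 1, Vwf, was called higher, while the median difference of the 8 was 0.06, with 5 above 0 and 3 below. The labels give wild-type replicate 6 as male and the other mice as female. Y-linked Eif2s3y was nevertheless at 9.41 to 9.52 in DNMTs-Tg and in wild-type replicates 1 and 6 at 9.50 and 9.51, and Xist was high on 1 array, that of wild-type replicate 4 (10.10). These signals go against the labelled sex of 4 mice, which include all DNMTs-Tg mice, so no comparison could be made without them. The 3′ minus 5′ signal of the Gapdh control probes, a measure of RNA integrity, was 0.66 ± 0.12 in DNMTs-Tg and 0.43 ± 0.06 in wild-type hearts (SD, n = 3 each), while that of beta-actin was 1.12 ± 0.25 in DNMTs-Tg and 1.15 ± 0.09 in wild-type. In whole tissue, fewer cells of a type and less RNA per cell cannot be told apart.

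Ccnd2, which encodes cyclin D2, was lower in DNMTs-Tg hearts by all 7 of its probe sets, and no DNMTs-Tg array reached any wild-type array in any of them. Its brightest probe set, 1434745_at, read 8.73, 8.69 and 8.69 in DNMTs-Tg replicates 1, 5 and 6, against 11.04, 10.85 and 10.59 in wild-type replicates 1, 4 and 6. The means were 8.70 ± 0.02 in DNMTs-Tg and 10.83 ± 0.22 in wild-type hearts (SD, n = 3 each), a difference of -2.12 ± 0.13 (SE), or 4.36-fold lower. The 3 DNMTs-Tg arrays were thus nearly level, and the gap to the lowest wild-type array was 1.87.

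The other Ccnd2 probe sets gave much the same size. Probe set 1430127_a_at differed most, at 7.55, 7.36 and 7.21 in DNMTs-Tg and 9.75, 9.55 and 9.51 in wild-type hearts, a difference of -2.23 ± 0.14 (SE, n = 3 each). Probe set 1416122_at stood at 8.27, 8.14 and 8.30 in DNMTs-Tg against 10.58, 10.23 and 10.20 in wild-type (-2.10 ± 0.14). In both, the groups lay 1.90 or more apart. Probe set 1455956_x_at read 7.94, 7.75 and 7.95 in DNMTs-Tg and 10.02, 9.63 and 9.56 in wild-type (-1.85 ± 0.15). Probe set 1448229_s_at read 7.85, 7.50 and 7.84 in DNMTs-Tg and 9.85, 9.48 and 9.45 in wild-type (-1.86 ± 0.16). The suffixes _x and _s mark probes that may also bind related transcripts, and the differences of these 2 were smaller than the 3 given before them.

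The 2 dimmest Ccnd2 probe sets had the widest spread among DNMTs-Tg arrays. Probe set 1416123_at read 6.49, 5.80 and 5.91 in DNMTs-Tg and 8.22, 8.04 and 7.78 in wild-type hearts (-1.95 ± 0.21, SE, n = 3 each). Probe set 1416124_at read 4.32, 3.98 and 3.73 in DNMTs-Tg, dim on all 3 arrays, and 5.32, 5.11 and 4.81 in wild-type. With its DNMTs-Tg values raised to each array's 40th percentile, a floor set here and not a measured background, it was at least 1.31-fold lower, and the measured difference of -1.07 ± 0.19 is the smallest of the 7. Within the wild-type group all 7 probe sets had the same order, replicate 1 above replicate 4 above replicate 6. The 7 share 1 transcript and 1 RNA sample per mouse, so they are not 7 independent measurements.

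**Figure D1:**
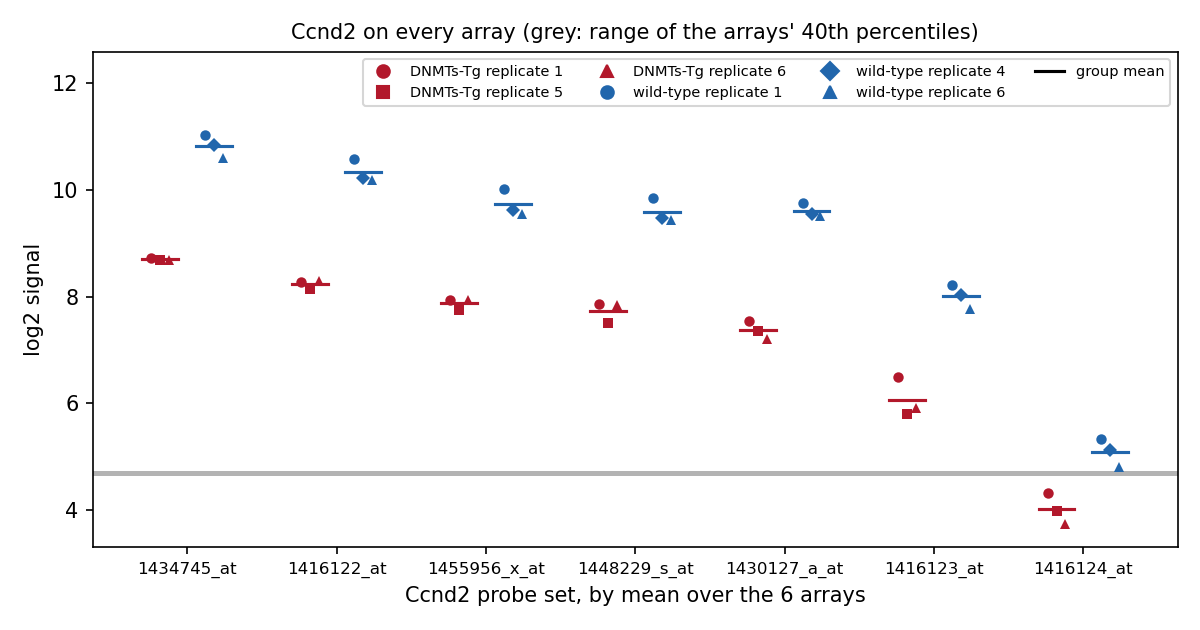
Log2 signal (y axis) of the 7 Ccnd2 probe sets (x axis, ordered by their mean) on each of the 6 arrays, DNMTs-Tg in red and wild-type in blue, with marker shapes for the replicate numbers and bars for the group means (n = 3 each). In every probe set the 3 red points lie below the 3 blue ones, and for 1416124_at the red points fall under the grey band of the arrays' 40th percentiles, 4.64 to 4.72.

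In DNMTs-Tg replicate 1, where macrophage and fibroblast markers were at 1.34 and 1.16, the brightest Ccnd2 probe set read 8.73, beside 8.69 in both other DNMTs-Tg replicates. Without that array the difference was -2.14, and without wild-type replicate 4, the one with high Xist, it was -2.11. The largest of the 6 differences with 1 array left out was -2.24, where wild-type replicate 6 was dropped, and the smallest was -2.02, where wild-type replicate 1 was. Neutrophil markers were higher in all 3 DNMTs-Tg arrays (1.75, 1.45 and 1.23, against -0.39 to 0.50 in wild-type), with S100a8, S100a9 and Csf3r measured of 5 and none of these dim in DNMTs-Tg. The part of macrophages, fibroblasts, neutrophils or sex in the Ccnd2 result was not tested, and leaving out 1 array does not test it.

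Of the 6 measured genes nearest to Ccnd2 on chromosome 6, 0 passed by limma. An unadjusted p under 0.05 was found for 1, where 22.5% of all genes by their brightest probe set had one. That gene, Tigar, known to be induced by p53 and to slow glycolysis, is the nearest measured gene on one side in RefSeq's mouse gene order (GRCm38.p6). Tigar read 9.69, 9.78 and 9.07 in DNMTs-Tg and 8.87, 9.05 and 8.47 in wild-type hearts, a difference of 0.72 ± 0.22 (SE, n = 3 each) with an adjusted p = 0.141. Its DNMTs-Tg arrays all lay above the wild-type ones, opposite to Ccnd2, but narrowly, with the nearest 2 arrays at 9.07 and 9.05. Of all probe sets 11.7% had groups apart on that side. Next on that side came the growth factor genes Fgf23 (0.80, adjusted p = 0.406) and Fgf6 (0.11, adjusted p = 0.872), the first of them dim on 5 of 6 arrays. On the other side Parp11 (-0.13, adjusted p = 0.626), Prmt8 (-0.06, adjusted p = 0.880) and Tspan11 (0.06, adjusted p = 0.842) did not pass either, and Prmt8 was dim throughout.

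Ccnd1, which encodes cyclin D1, did not pass in any of its 3 probe sets. The brightest, 1417420_at, read 9.76, 9.62 and 10.40 in DNMTs-Tg against 9.92, 9.56 and 9.99 in wild-type hearts (difference 0.11 ± 0.22, SE, n = 3 each, adjusted p = 0.828). Its 95% confidence interval ran from -0.39 to 0.60. DNMTs-Tg replicate 6 was the highest of the 6 arrays in all 3 Ccnd1 probe sets, the others being 1448698_at (0.16 ± 0.19) and 1417419_at (-0.08 ± 0.17). Without that replicate the difference of the brightest was -0.13.

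Ccnd3, which encodes cyclin D3, rose in DNMTs-Tg hearts by its brightest probe set. Probe set 1415907_at read 8.68, 8.68 and 8.79 in DNMTs-Tg against 8.15, 8.10 and 8.12 in wild-type, a difference of 0.60 ± 0.11 (SE, n = 3 each, adjusted p = 0.0360), or 1.51-fold. The groups were 0.53 apart, several times the range within either. Among the 22 probe sets of the 8 genes other than Ccnd2 it was the 1 that passed, where 0.799% of all probe sets were called higher and 1.31% lower. The other Ccnd3 probe sets were much dimmer and did not pass. Probe set 1444323_at stood at 4.97, 5.40 and 5.51 in DNMTs-Tg and 5.39, 5.14 and 5.34 in wild-type (0.00 ± 0.17, adjusted p = 0.996), and 1438805_at at 5.39, 4.55 and 4.52 in DNMTs-Tg against 4.56, 4.34 and 4.07 in wild-type (0.49 ± 0.24, adjusted p = 0.313), dim on 5 of 6 arrays. The difference of 1415907_at was 0.56 to 0.61 whichever array was left out, but its call ended without DNMTs-Tg replicate 5 (adjusted p = 0.118) and without wild-type replicate 1 (0.157), 4 (0.157) or 6 (0.149), with limma.

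The 7 Ccnd2 probe sets were likewise all called lower, so that 8 of the 29 probe sets of the family were called. Since Ccnd2 led to the choice of the family, nothing is read from that count. Probe sets whose groups did not overlap made up 11.7% of all probe sets on the higher side and 14.9% on the lower, and 3 and 13 of the 29, with the 7 of Ccnd2 among the 13.

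**Figure D2:**
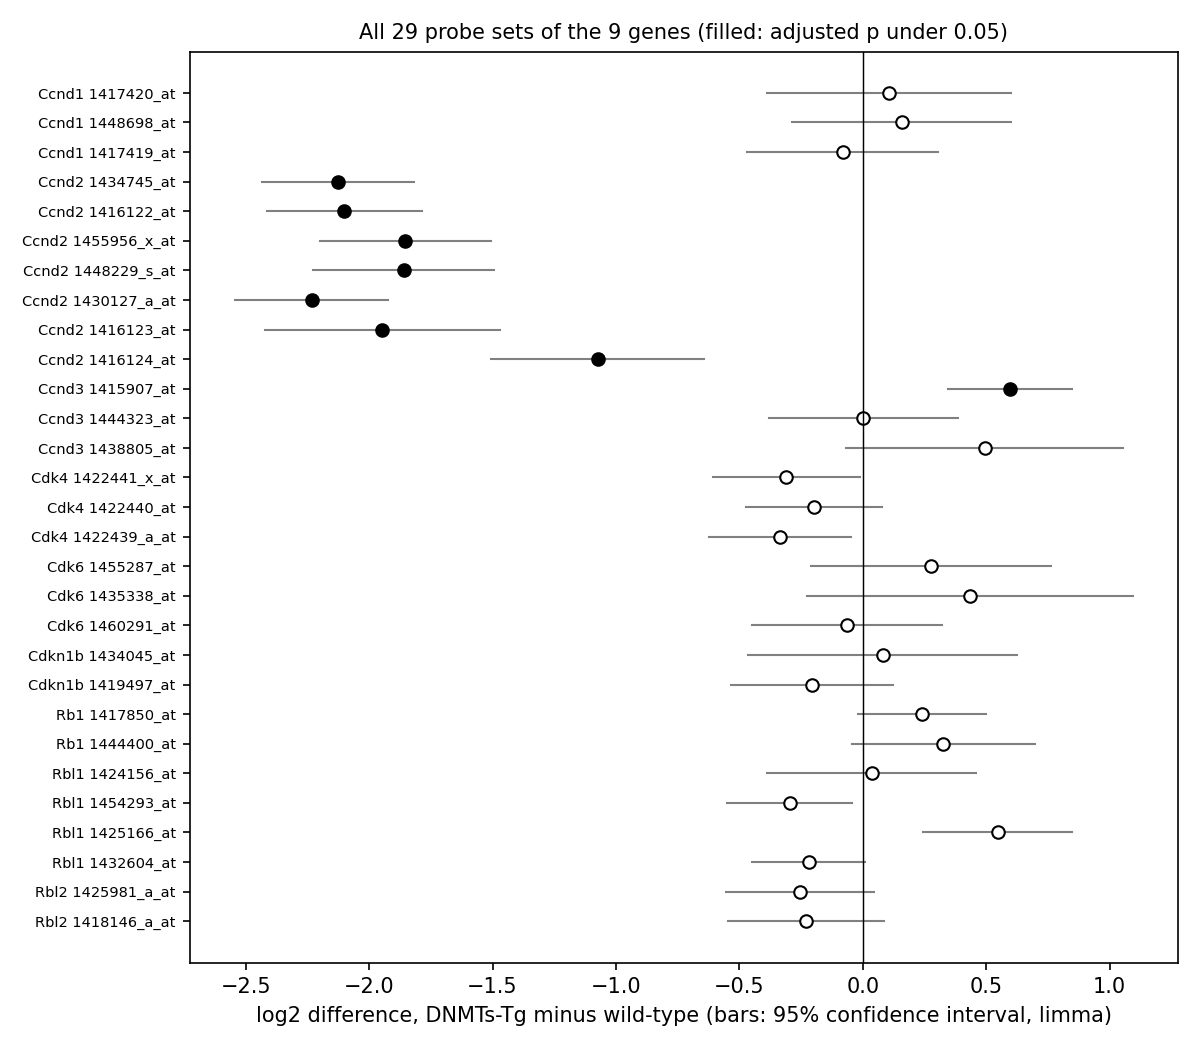
Log2 difference, DNMTs-Tg minus wild-type (x axis), for each of the 29 probe sets (rows), with 95% confidence intervals from limma as bars and filled points where the adjusted p was under 0.05. The 7 Ccnd2 probe sets lie between -2.23 and -1.07, Ccnd3 1415907_at lies at 0.60, and the open points of the other 21 lie between -0.34 and 0.55.

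Cdk4 and Cdk6, the kinases that D cyclins activate, did not pass. Cdk4 by its brightest probe set, 1422441_x_at, read 7.99, 8.18 and 8.34 in DNMTs-Tg against 8.53, 8.42 and 8.49 in wild-type hearts (-0.31 ± 0.13, SE, n = 3 each, adjusted p = 0.242). Probe set 1422439_a_at read 7.71, 7.79 and 7.97 in DNMTs-Tg against 8.22, 8.06 and 8.20 in wild-type (-0.34 ± 0.12, adjusted p = 0.200), and 1422440_at read 7.89, 7.79 and 8.05 in DNMTs-Tg against 8.13, 8.08 and 8.11 in wild-type (-0.20 ± 0.12, adjusted p = 0.404). In all 3 the DNMTs-Tg arrays lay below the wild-type arrays, by gaps of 0.03 to 0.09. Of all probe sets 14.9% had groups apart on that side, and the 3 share the same transcript and the same RNA samples. The interval of the largest difference ran from -0.62 to -0.05.

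Cdk6 varied more among mice of 1 genotype. Its brightest probe set, 1455287_at, read 8.34, 7.78 and 8.03 in DNMTs-Tg and 7.62, 7.52 and 8.18 in wild-type hearts (0.28 ± 0.21, SE, n = 3 each, adjusted p = 0.515), so the groups overlapped. The next, 1435338_at, read 7.89, 7.39 and 7.37 in DNMTs-Tg against 6.94, 6.64 and 7.77 in wild-type (0.43 ± 0.29, adjusted p = 0.448), and 1460291_at differed by -0.06 ± 0.17 (adjusted p = 0.873). DNMTs-Tg replicate 1 was the highest DNMTs-Tg array and wild-type replicate 6 the highest wild-type array in all 3. These are also the arrays with the highest fibroblast marker values of their groups, 1.16 and 0.24, and the highest macrophage marker values, 1.34 and 0.17, and the part of those cells in the Cdk6 signal was not tested. Without DNMTs-Tg replicate 1 the difference of 1455287_at was 0.13, and without wild-type replicate 6 it was 0.48.

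Cdkn1b, the p27 inhibitor gene, also overlapped between the genotypes. Probe set 1434045_at read 8.60, 8.55 and 9.21 in DNMTs-Tg and 8.99, 8.27 and 8.86 in wild-type hearts (0.08 ± 0.24, SE, n = 3 each, adjusted p = 0.887), with an interval of -0.47 to 0.63. The second probe set, 1419497_at, was dim on 5 of 6 arrays (-0.21 ± 0.14, adjusted p = 0.465). Cdkn1b lies on the same chromosome as Ccnd2, and its neighbours Gpr19, Crebl2, Dusp16, Apold1, Ddx47 and Gprc5a differed by -0.02 (Crebl2) to 0.56 (Apold1, adjusted p = 0.313), with 0 of the 6 past limma's threshold and 0 at an unadjusted p under 0.05.

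Of the retinoblastoma genes 0 passed by limma in 8 probe sets, and 2 of the 8, both of Rbl1, had an unadjusted p under 0.05. Over all genes by their brightest probe set 22.5% had such a p, so nothing is read from that count. Rb1, which encodes the retinoblastoma protein itself, read 9.28, 9.17 and 9.30 in DNMTs-Tg against 9.10, 9.04 and 8.90 in wild-type hearts by its bright probe set 1417850_at (0.24 ± 0.11, SE, n = 3 each, adjusted p = 0.291). The groups did not overlap, by a gap of 0.08, and its second probe set, 1444400_at, was dim on every array. Rbl2 did not pass in either probe set. Its brighter one, in which the groups overlapped, 1425981_a_at, read 8.09, 8.13 and 8.34 in DNMTs-Tg against 8.51, 8.53 and 8.29 in wild-type (-0.25 ± 0.13, adjusted p = 0.331), and 1418146_a_at read 6.36, 6.59 and 6.62 in DNMTs-Tg against 6.73, 6.91 and 6.62 in wild-type (-0.23 ± 0.14, adjusted p = 0.398).

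Rbl1 had 1 probe set above the dim range, 1424156_at, at 6.49, 6.38 and 7.01 in DNMTs-Tg against 6.65, 6.69 and 6.44 in wild-type hearts (0.04 ± 0.18, SE, n = 3 each, adjusted p = 0.937). The other 3 were dim on every array and did not move together. Probe set 1425166_at stood at 3.60, 3.83 and 3.97 in DNMTs-Tg against 3.40, 3.09 and 3.27 in wild-type (0.55 ± 0.13, adjusted p = 0.0813), whereas 1454293_at and 1432604_at differed by -0.30 ± 0.11 and -0.22 ± 0.10. At this level single values recur up to 71 times on an array, and how much a small step there means was not tested.

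**Figure D3:**
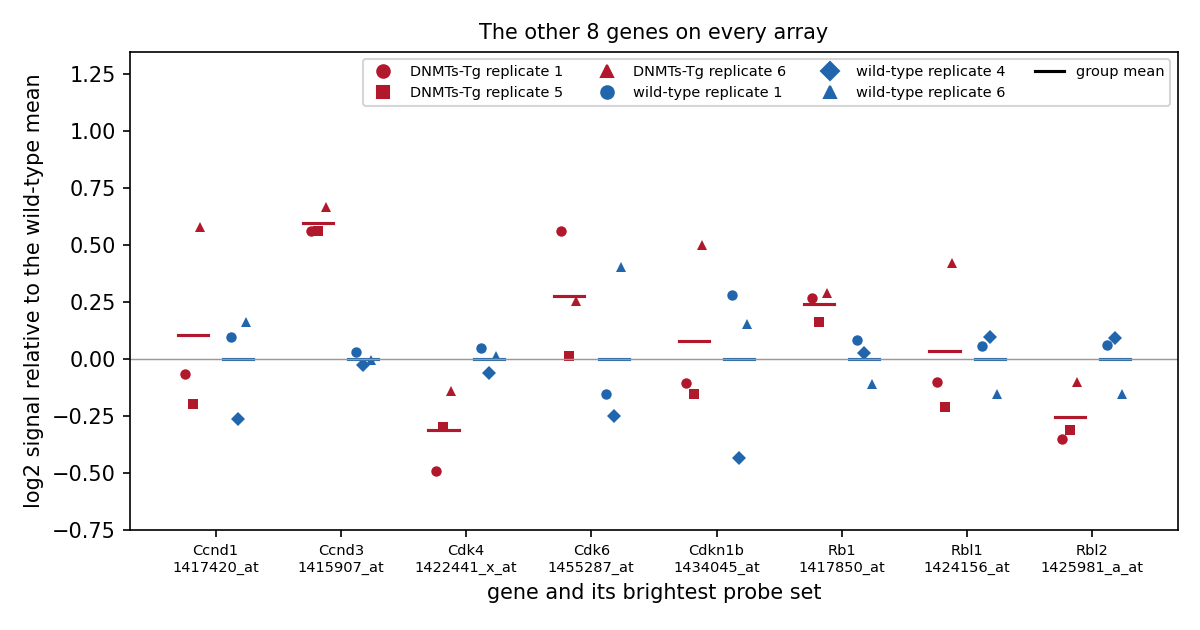
Log2 signal relative to the wild-type mean (y axis) for the brightest probe set of the 8 genes other than Ccnd2 (x axis), 1 point per array with DNMTs-Tg in red, wild-type in blue and bars for group means (n = 3 each). The red points of Ccnd3 sit 0.56 or more above the wild-type mean, those of Cdk4 lie below all blue points, and DNMTs-Tg replicate 6 is the highest array for Ccnd1, Ccnd3, Cdkn1b, Rb1 and Rbl1.

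The genes around the family in the cell cycle were taken as 9 lists with 102 genes measured, of which 0 were called higher and 2 lower by limma. Over all 18193 genes by their brightest probe set, 1.2% were called higher and 1.82% lower. The median difference of the 102 genes was 0.08, beside -0.02 over all genes, and 23 of the 102 had an unadjusted p under 0.05. That share does not stand out, since 22.5% of all genes had such a p, and the counts of each list below are to be read against it. The lists were drawn up with earlier results from these arrays known.

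Downstream of the retinoblastoma proteins, E2F factors with their DP partners had 0 of 10 genes past the threshold and 0 at an unadjusted p under 0.05. E2f7, an atypical repressor, differed by 0.45 (adjusted p = 0.278) and E2f6 by -0.38 (adjusted p = 0.288). Among 14 S-phase genes under E2F 4 had an unadjusted p under 0.05 by limma, and 8 differences were above 0 and 6 below. The 1 gene that passed, Pola1, the catalytic subunit of DNA polymerase alpha, fell. Pola1 read 6.46, 5.88 and 6.78 in DNMTs-Tg against 7.85, 7.67 and 7.68 in wild-type hearts (-1.36 ± 0.22, SE, n = 3 each, adjusted p = 0.0244), a gap that separates the groups on every array. It was called without DNMTs-Tg replicate 1 or 6, but not without DNMTs-Tg replicate 5 (-1.11, adjusted p = 0.0554). Dropping wild-type replicate 1, 4 or 6 also ended the call, with adjusted p = 0.126, 0.107 and 0.0983 in that order. The list as a whole had a median of 0.04.

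Of 9 mitosis genes 0 passed and 0 had an unadjusted p under 0.05, although all 9 differences were above 0 (median 0.38). The list value was 0.86 in DNMTs-Tg replicate 6 and 0.14 and 0.01 in replicates 1 and 5, with wild-type arrays at -0.08 to 0.12. That array was the highest of the 6 for 9 of 9 mitosis genes, for 10 of 14 S-phase genes and for all 3 Ccnd1 probe sets, and its part in these values beyond that was not tested. Cdk1, the kinase of mitotic entry, read 6.03, 5.75 and 6.71 in DNMTs-Tg against 5.62, 5.77 and 5.74 in wild-type hearts (0.45, adjusted p = 0.328), and Bub1, a spindle checkpoint kinase, differed by 0.55 (adjusted p = 0.338) at dim levels.

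Among partners and other inhibitors, the list of cyclin E, cyclin A and CDK2 with the CDK-activating kinase had 0 of 9 past the threshold and 2 at an unadjusted p under 0.05. Ccnh, the cyclin of the activating kinase, differed by -0.59 ± 0.16 (SE, adjusted p = 0.106) and Cdk2 by 0.42 ± 0.14 (adjusted p = 0.177). Of 6 other CDK inhibitors 0 passed and 2 had an unadjusted p under 0.05. Cdkn1a, the p21 gene, read 12.16, 11.55 and 9.87 in DNMTs-Tg against 7.98, 9.39 and 8.46 in wild-type hearts (2.59 ± 0.57, adjusted p = 0.0640), wide within both groups though without overlap. Without DNMTs-Tg replicate 6 the Cdkn1a difference was 3.25 and passed by limma (adjusted p = 0.00777). Dropping that array also raised the calls over all probe sets from 952 to 2429. Cdkn1a did not pass without DNMTs-Tg replicate 1 or 5 (adjusted p = 0.0757 and 0.190). Nor did it without wild-type replicate 1, 4 or 6, with adjusted p = 0.212, 0.118 and 0.2045 in that order. Cdkn2b, the p15 inhibitor of CDK4 and CDK6, read 7.25, 6.66 and 6.06 in DNMTs-Tg against 5.51, 5.80 and 6.01 in wild-type (0.88 ± 0.28, adjusted p = 0.151).

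Of 15 transcription factors known to act on D cyclin or Cdkn1b genes 3 had an unadjusted p under 0.05 by limma. Of the 15 differences 7 were above 0 and 8 below. The 1 factor that passed, Stat5b, responsive to cytokines and growth hormone, fell. It read 8.05, 8.22 and 8.65 in DNMTs-Tg against 9.06, 9.15 and 9.30 in wild-type hearts (-0.86 ± 0.17, SE, n = 3 each, adjusted p = 0.0451). It missed the threshold under quantile normalization (adjusted p = 0.0536) and without DNMTs-Tg replicate 5 (adjusted p = 0.153). It also missed it when wild-type replicate 1, 4 or 6 was dropped, with adjusted p = 0.150, 0.163 and 0.177 in that order. Myc, singled out after its values were seen, read 9.05, 9.27 and 6.77 in DNMTs-Tg against 6.16, 6.16 and 6.01 in wild-type (2.25 ± 0.57, adjusted p = 0.0926), with replicates 1 and 5 far above replicate 6. Among 11 genes of D cyclin and p27 turnover 0 passed and 2 had an unadjusted p under 0.05. Fbxo4, an F-box protein tied to cyclin D1 degradation, differed by 0.63 ± 0.15 (adjusted p = 0.0827), and Skp1, a core subunit of the ligase, by -0.23 ± 0.09 (adjusted p = 0.203).

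The remaining lists had no member past the threshold. In the MuvB list, whose core joins Rbl1 and Rbl2 in a repressor complex, 0 of 7 passed and 2 had an unadjusted p under 0.05, Lin54 (0.49, adjusted p = 0.115) and Rbbp4 (0.25, adjusted p = 0.222). Other cyclins and CDKs had 0 of 21 genes past the threshold by limma, and 8 stood at an unadjusted p under 0.05, where 22.5% of all genes did. Among them were Cdk5r1, an activator of CDK5, at 0.60 (adjusted p = 0.0642) and Ccni, encoding cyclin I, at -0.51 (adjusted p = 0.0901).

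**Figure D4:**
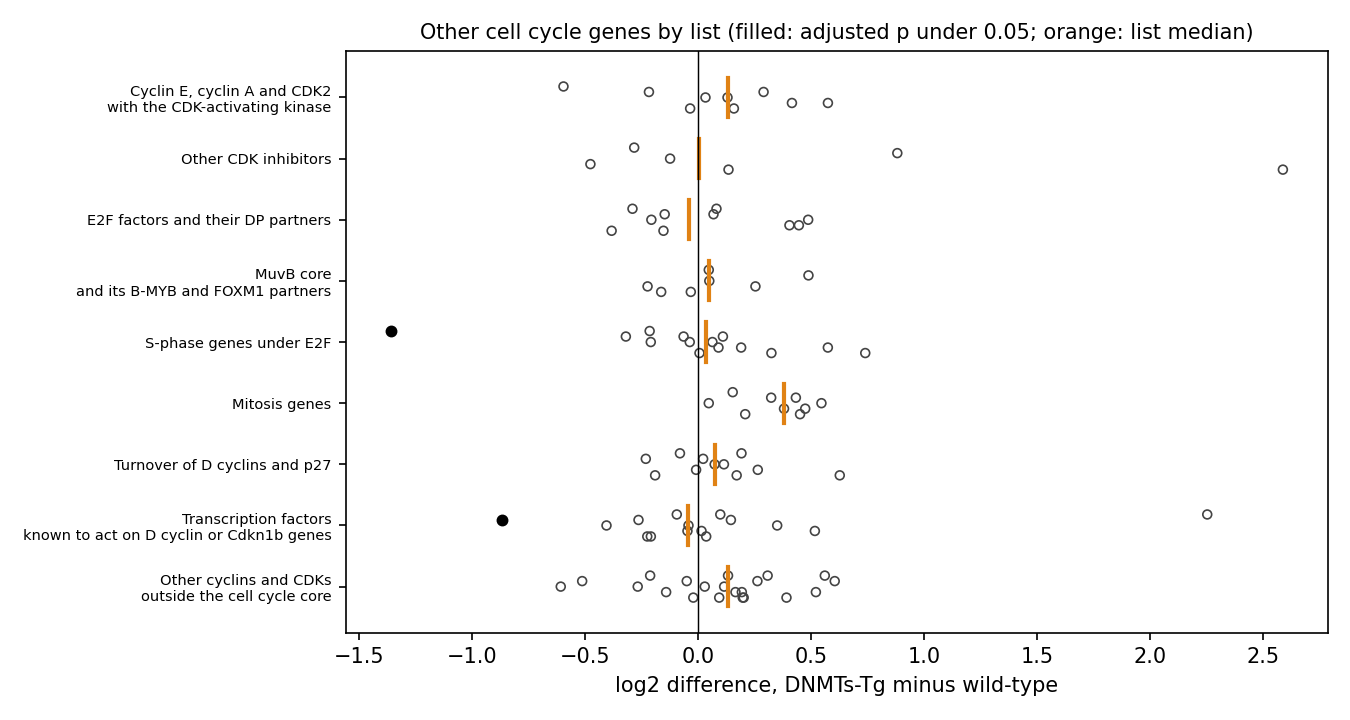
Log2 difference, DNMTs-Tg minus wild-type (x axis), of each measured gene in the 9 lists (rows), 1 point per gene by its brightest probe set, filled where the adjusted p was under 0.05, with an orange bar at the list median. The filled points are Pola1 at -1.36 and Stat5b at -0.86, and the points farthest right are Cdkn1a at 2.59 and Myc at 2.25.

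The genes whose values over the 6 arrays lay nearest to those of Ccnd2 1434745_at were Sco2, Tesc, Smim20, Hsbp1l1 and Npepl1. Likeness was the root mean square difference, over the 6 arrays, between log2 values each taken relative to the gene's own wild-type mean, and it was 0.11 for Sco2, 0.19 for Tesc, 0.20 for Smim20, 0.22 for Hsbp1l1 and 0.23 for Npepl1. Sco2, a copper chaperone of cytochrome c oxidase, read 6.38, 6.43 and 6.20 in DNMTs-Tg against 8.53, 8.59 and 8.13 in wild-type hearts. Tesc, which encodes the calcium-binding protein tescalcin, read 9.63, 9.28 and 9.55 in DNMTs-Tg against 11.82, 11.47 and 11.73 in wild-type. Hsbp1l1 read 3.41, 3.51 and 3.40 in DNMTs-Tg, dim on all 3 arrays, against 5.70, 5.55 and 5.85 in wild-type. Genes compared had to lie above the 40th percentile on at least 3 arrays, which Hsbp1l1 met only through its wild-type arrays. None of these 5 lies on chromosome 6. They were picked for the likeness out of 12904 genes, so their lower level in DNMTs-Tg is no separate result.

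Promoter sequence was taken from RefSeq (GRCm38.p6) as windows of 300 bases around annotated transcription starts, which matched 6 of the 9 genes with 7 windows. Ccnd1, Ccnd2 and Rb1 had no entry. The question of the study concerns methylation at CpG dinucleotides, and the member windows held 14 (Rbl2) to 30 (Cdkn1b) of them, where the median over 32851 windows was 7. Ccnd3 is shown because 1 of its 3 probe sets, the brightest, was called higher, and each CpG is in capitals. Its first window (chr17:47504801-47505100, plus strand) has 15 CpGs, more than 65.4% of all windows, and its second (chr17:47593217-47593516, plus strand) has 28, more than 85.8%.
Ccnd3, first start: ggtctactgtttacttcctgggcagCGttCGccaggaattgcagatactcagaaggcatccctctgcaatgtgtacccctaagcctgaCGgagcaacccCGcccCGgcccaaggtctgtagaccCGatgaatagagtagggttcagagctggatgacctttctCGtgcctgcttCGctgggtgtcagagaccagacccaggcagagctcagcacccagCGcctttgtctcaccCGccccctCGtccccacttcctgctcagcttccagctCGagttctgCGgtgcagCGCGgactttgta
Ccnd3, second start: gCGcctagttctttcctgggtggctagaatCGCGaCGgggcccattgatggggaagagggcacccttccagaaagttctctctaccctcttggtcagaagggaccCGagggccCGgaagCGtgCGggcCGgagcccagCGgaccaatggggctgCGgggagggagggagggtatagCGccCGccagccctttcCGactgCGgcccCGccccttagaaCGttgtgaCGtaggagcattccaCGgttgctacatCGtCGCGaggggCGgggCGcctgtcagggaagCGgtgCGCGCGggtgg
Which of these 2 starts the hearts used was not measured.

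Cdk4 is shown for its E-boxes, the letters CACGTG bound by MYC with MAX, because Myc was measured above. The window (chr10:127063285-127063584, plus strand) holds 4 of them, in capitals.
Cdk4: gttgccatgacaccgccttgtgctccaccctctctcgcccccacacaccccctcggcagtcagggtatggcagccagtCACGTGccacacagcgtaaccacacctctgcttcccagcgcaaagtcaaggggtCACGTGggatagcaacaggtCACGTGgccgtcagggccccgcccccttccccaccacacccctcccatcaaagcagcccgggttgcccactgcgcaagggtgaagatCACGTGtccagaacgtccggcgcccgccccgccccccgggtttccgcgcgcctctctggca
The motif reads the same on both strands and occurs in 7.15% of all windows, and 0.0244% hold 4 or more. The Cdk4 window was picked for its E-boxes and the cut of 4 is its own count, so that share is no test. CACGTG itself holds a CpG, and the Cdk4 window has 22 CpGs, where the median over all windows was 7. The Cdk6 window held 1, and the other 5 member windows held none. An E2F motif, searched on both strands as TTTCGCGC, TTTGGCGC or TTTCCCGC, was found in 1 member window, that of Rbl1, and in 1.845% of all windows. A match is a description of the letters and says nothing of binding in these hearts.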

How the data were processed

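Gene expression was measured on Affymetrix GeneChip arrays, 1 per mouse heart, with total RNA labelled by in vitro transcription per the labels' protocols. The deposited table has a value for each probe set in each array, taken as log2 signal because the values ran from 2.06 to 14.74 with nearly equal array medians. Background correction, normalization and software were not given in the sources used here, and no detection calls were used. Of 45101 probe sets, 64 controls were left out. The platform annotation gave 1 symbol for 34958, several for 932 and none for 9211, and 34754 symbols were matched by gene identifier to GRCm38.p6. All 29 member probe sets matched by current symbol.

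All 45037 probe sets were fitted without a filter with R 4.3.3 and limma 3.58.1 (lmFit and a trended eBayes, genotype as the only term, 2-sided), with Benjamini-Hochberg adjustment over all of them and a threshold of 0.05. Of the member probe sets 23 lay above the 40th percentile on at least 3 arrays, 6 did not, and 4 of those were dim on all 6. Other genes were represented by their brightest probe set, by mean over all arrays. Named were all members, up to 4 called genes per list or otherwise the 2 with the smallest p, 3 measured protein-coding neighbours per side of Ccnd2 and Cdkn1b, and the 5 genes nearest to Ccnd2. Myc was added later. Members, lists and tests were chosen with earlier results of these data known. The script's fit was tested on simulated data. Nothing in the labels beyond mouse numbers describes the replicates, and 3 arrays per group limit the precision. An exact permutation test of 3 against 3 cannot go below 0.1. As alternatives, normalization, filter, variance model and array weighting were varied, the mouse number was used as a block, and each array was left out.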

Additional observations from a re-analysis of the deposited data

How the results depend on the processing

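Direction held for all 7 Ccnd2 probe sets and for Ccnd3 1415907_at in every alternative in which they were tested. Leaving out an array could not have reversed it, because the groups did not overlap, and filters or variance models leave the difference itself unchanged. Of 400 alternative values of single member probe sets, 17 lost a call and 4 gained one, and 7 probe sets, all uncalled, changed sign somewhere. The gained calls were of Rbl1 1425166_at, dim on every array, in 3 alternatives, and of Cdk4 1422439_a_at with array weights (-0.36, adjusted p = 0.0477). Of the lost calls 6 were of Ccnd3 1415907_at, with 4 of the arrays left out, with the replicate block and under quantile normalization (0.54, adjusted p = 0.0581). The other 11 were of Ccnd2, and since Ccnd2 led to the choice of the family nothing is read from its calls; its dimmest probe set, 1416124_at, differed by -1.23 to -0.94 with 1 array left out. Of 14 named pathway genes that did not pass, 9 passed with array weights and 5 without DNMTs-Tg replicate 6 (Ccnh, Cdkn1a, Cdkn2b, Fbxo4 and Ccni). The 14, without Myc, were named for the smallest p of their lists. Both settings also raised the calls over all probe sets, so nothing is read from these counts. Bub1 passed without DNMTs-Tg replicate 5, and Cdk5r1 with either filter or 1 probe set a gene.

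Of the family 8 probe sets were called, 2 with 1 probe set a gene, where 9 were tested, and 6 to 9 with 1 array left out. Over all probe sets 952 were called, 5472 with array weights and 167 (without wild-type replicate 1) to 2429 (without DNMTs-Tg replicate 6) with 1 array left out, and the cause was not tested. The label numbers 1 and 6 occur in both genotypes. Deviations of same-numbered arrays correlated at -0.05 and -0.08, so the numbers are not taken to pair the mice. With the number as a replicate block, which leaves 1 residual degree of freedom, 0 member probe sets were called by limma, with 10 at an unadjusted p under 0.05. Of these 7 were of Ccnd2, from which nothing is read. Over all probe sets 7 were called with the block. Dim probe sets of Rb1, Rbl1, Ccnd3 and Cdkn1b limit what can be said of them.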
